A study of Homo sapiens with 100 samples.

Results

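The genes described here are 31 transcriptional targets of the tumour suppressor p53, taken by gene symbol from a deposited gene-by-library table of 78894 gene rows. They are MDM2, MDM4, PPM1D and CCNG1, which act back on p53; CDKN1A, GADD45A, BTG2, PLK2 and PLK3, which act in cell cycle arrest; FAS, TNFRSF10A, TNFRSF10B, EDA2R and PIDD1, of death receptor signalling; AEN, TP53I3, TP53INP1, PHLDA3, ZMAT3, FDXR, SPATA18 and TRIAP1, of intracellular death and mitochondrial pathways; DDB2, XPC, POLH, RRM2B and ASCC3, of DNA repair and nucleotide supply; and SESN1, TIGAR, GDF15 and FBXO22, of metabolism, secretion and protein turnover. p53 is a transcription factor that is kept low by its own target MDM2, an E3 ubiquitin ligase, and accumulates after DNA damage and other stress. It then binds a pair of short sites near its targets and raises genes that halt the cell cycle, repair DNA or promote death. Many of these genes are also read by other factors, so their mRNA levels are not a measure of p53 alone.

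The cells were TMD8, an established human lymphoma line (diffuse large B-cell, ABC subtype) whose growth relies on BTK, the kinase downstream of the B-cell receptor. Single-cell clones with wild-type BTK (5 clones) and clones with the BTK A428D mutation at the endogenous locus (6 clones) were each exposed for 24 h to 8 conditions. These were DMSO, zelebrudomide (Z), bexobrutideg (B), pomalidomide (P), venetoclax (V) and the combinations Z-V, B-V and P-V. A further 12 untreated libraries came from the same 11 clones and from 1 parental culture. Compound names follow the protocol text; sample labels write Zelbrudomide and Bexobrutidig. As background, zelebrudomide and bexobrutideg are BTK degraders, zelebrudomide also degrades IKZF1 and IKZF3 through cereblon, pomalidomide directs cereblon to IKZF1 and IKZF3, and venetoclax inhibits BCL2. Doses are not given in the sources used here. Sample titles attach A428D to SF3B1 and the protocol text to BTK, and the counts, taken near transcript ends, cannot check either. The clones are the replicates, so every group has n = 5 wild-type or n = 6 A428D, and each genotype rests on clones of 1 line.

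The site that p53 recognises is a pair of adjoining sites of 10 bases. A search of the 300 bases around each gene's start (250 before, 50 after), on either strand, allowing up to 1 base between the sites and up to 2 mismatches in 20, found such an element in 4 of the 23 genes with a window in RefSeq (GRCh38.p14): MDM2, FAS, AEN and DDB2. The same search found it in 0.674% of all 27305 genes with a window, and a gene can have several windows. No window was at hand for GADD45A, TNFRSF10A, TNFRSF10B, TP53INP1, PHLDA3, RRM2B, ASCC3 and FBXO22. The elements of these 4 genes are shown because no other gene of the set with a window had a match. Capitals mark the element, read 5′ to 3′ on the plus strand.
MDM2, chr12:68808923-68808942, in an intron, 2 mismatches: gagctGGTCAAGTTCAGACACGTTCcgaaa
FAS, chr10:88991309-88991328, in an intron, 2 mismatches: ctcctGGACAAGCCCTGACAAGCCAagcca
AEN, chr15:88621306-88621325, in an untranslated exon, 2 mismatches: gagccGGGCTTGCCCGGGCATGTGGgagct
DDB2, chr11:47214979-47214999, in an untranslated exon, 0 mismatches with 1 base between the sites: ggtttGAACAAGCCCTGGGCATGTTTggcg
A second, overlapping match with 1 mismatch lies at chr11:47214969-47214988 in DDB2. A match describes letters in a window and is not a measured binding site.

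The 24 h libraries held 1476519 to 9388855 counts each (median 6980897) and the untreated libraries 10400854 to 12501775. The shallowest, wild-type clone 3 under B-V, stood apart: it was the highest of its 5 clones for 17 of 29 tested target genes and the lowest for 10, against 36.5% and 44.6% of all 14962 tested genes. Leaving it out changed the wild-type B-V count against DMSO from 7 lower and 0 higher to 9 lower and 1 higher of 29: POLH was lost, and MDM2, MDM4, TNFRSF10B (lower) and TNFRSF10A (higher) were added. The B-cell markers MS4A1 (626 to 1810), CD79A (82.6 to 1080) and PAX5 (292 to 636 CPM, counts scaled to a common library total) were expressed in every library, while the T cell, myeloid and erythroid markers had medians below 1 CPM; COL1A1 of the fibroblast list and CDH1 of the epithelial list had medians of 7.78 and 15.7 CPM. Mitochondrial transcripts made up 7.3 to 9.07% of counts in wild-type DMSO and 9.41 to 10.3% in wild-type Z-V. Their part in the results was not tested.

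Of the 31 genes, 29 had enough counts to be tested in the 24 h set. PLK2, a polo-like kinase, had 31 counts in all 100 libraries and was at 0 in 80 of them. EDA2R had 7 counts and was at 0 in 93. A count of 0 over all 100 libraries would allow up to 0.00406 CPM (3 counts). GDF15, a secreted stress cytokine, passed the filter with 408 counts in all and a highest count of 22. Levels below are CPM scaled by TMM library sizes. Changes are log2 fold changes from edgeR's quasi-likelihood test over all 88 libraries, with an SE (±) derived from its F statistic. A gene is called where the Benjamini-Hochberg adjusted p over 14962 genes is under 0.05.

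Venetoclax lowered more of these genes than it raised. Against DMSO it lowered 11 of 29 in wild-type clones and raised 1, where 17.4% of all tested genes were called lower and 15.4% higher. Called in either direction were 32.8% of all genes. The median change of the 29 was -0.15, against medians between -0.059 and -0.00097 over all genes in the 14 comparisons. By role, the 11 were 3 of 4 arrest genes, 2 of 4 genes that act back on p53, 2 of 4 in death receptor signalling, 2 of 8 intracellular death genes, 1 of 5 repair genes and 1 of 4 others. In A428D clones it lowered 6 and raised 1 (8.81% and 8.06% of all genes), with a median of -0.21. With clone as a block, the A428D count went from 7 to 14 called genes, while that over all 14962 genes went from 2524 to 4594. The gene that rose in both genotypes was AEN. Fewer cells of a kind and less RNA per cell cannot be told apart in such bulk libraries.

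The combinations with venetoclax also gave mostly lower levels. In wild-type clones Z-V lowered 11 of 29 (11.5% of all genes lower, 23.4% in either direction). B-V lowered 7 (10.5% and 21.3%), or 9 without the shallow library. P-V lowered 10, which is 34.5% of the 29 (19% of all genes lower, 36.7% in either direction). With all libraries and no block, none of the 29 was called higher in these 3. Of all 14962 genes, 1779, 1620 and 2652 were. An unadjusted p under 0.05 was found for 9 to 14 of the 29. In A428D clones Z-V lowered 9 (14%) and raised 1 (12.2% higher), B-V lowered 9 (8.66%) and raised 1 (7.02%), and P-V lowered 8 (15.9%; 30.4% in either direction). With clone as a block the wild-type P-V count went from 10 to 17 (16 lower and 1 higher), while that over all genes went from 5496 to 7161. The block also called 1 gene of the set higher in wild-type B-V. RRM2B and CCNG1 were lower in all 4 venetoclax conditions in both genotypes, and SESN1, BTG2 and TP53INP1 also in all 4 in A428D clones.

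The single partners moved few of these genes. In wild-type clones zelebrudomide lowered 4 of 29 (6.57% of all genes called in either direction, 3.05% higher), bexobrutideg lowered 1 (2.45%), and pomalidomide lowered 3 and raised 1 (9.98%; 5.35% higher). With the block the counts went from 1 to 3 for bexobrutideg and from 4 to 7 for pomalidomide. Over all 14962 genes they went from 366 to 1583 and from 1493 to 2879. In A428D clones zelebrudomide lowered 1 (2.06%) and pomalidomide lowered 1 and raised 1 (8.68%). The block gave 3 calls for zelebrudomide there, while those over all genes went from 308 to 1008. Bexobrutideg moved none in A428D clones by edgeR (0% of all genes), none had an unadjusted p under 0.05, and DESeq2 also called 0. Of the 49 calls in wild-type clones, 27 held in every alternative fit and 29 in every fit that left out 1 clone; of the 38 in A428D clones, 23 and 25 did.

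**Figure D1:**
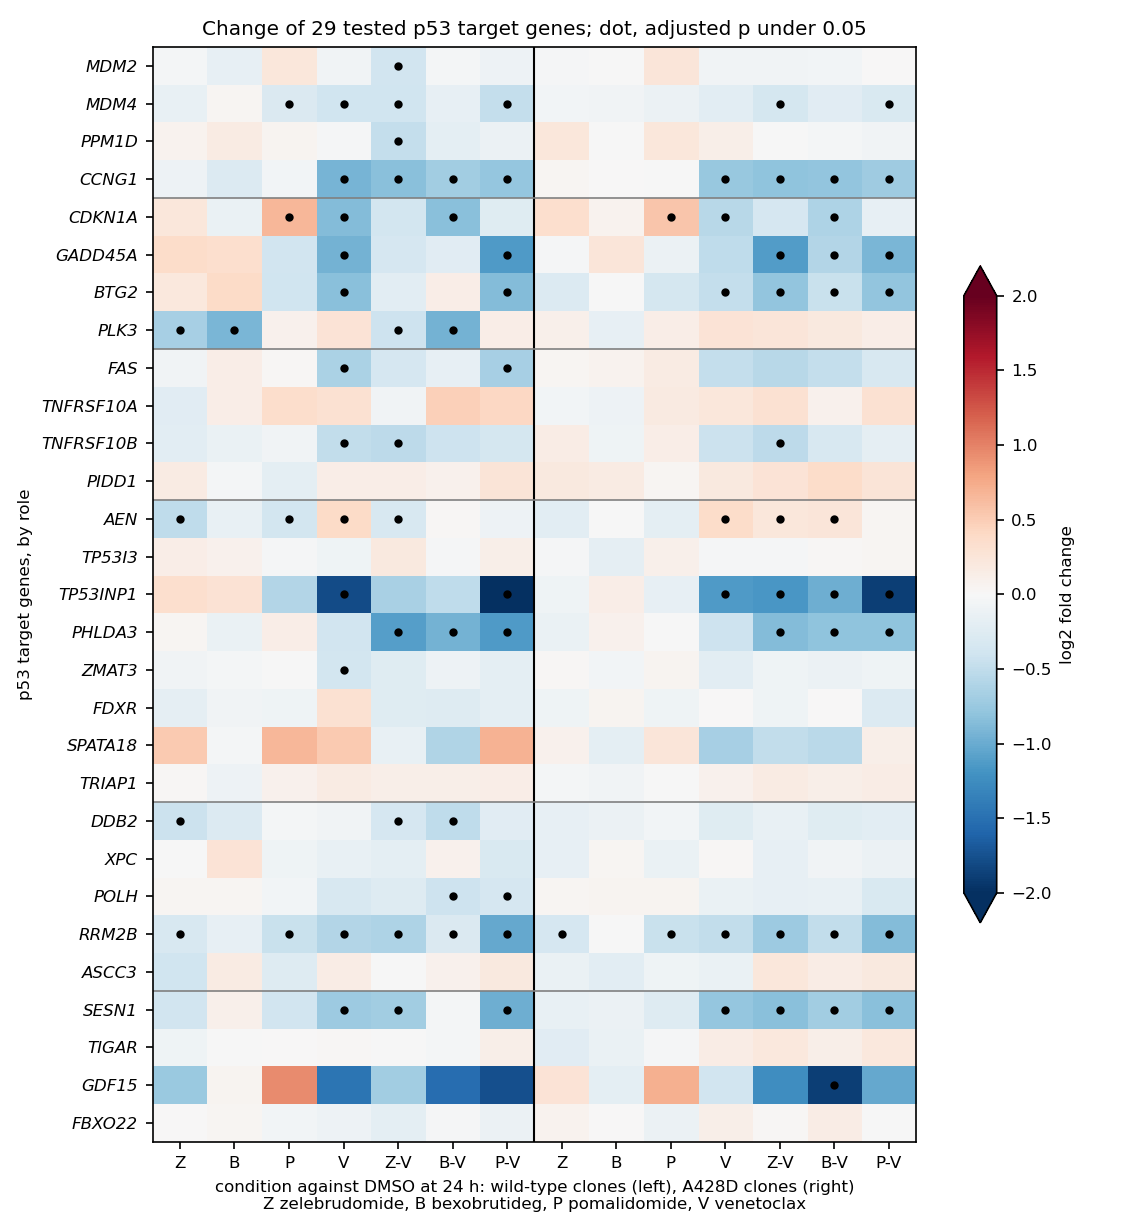
Log2 fold change of the 29 tested p53 targets (rows, grouped by role) in each condition against DMSO (columns; wild type left, A428D right), with a dot where the adjusted p was under 0.05. The venetoclax columns are mostly blue, with 11 genes lower in wild-type and 6 in A428D clones under venetoclax alone.

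Among the genes that act back on p53, CCNG1 (chromosome 5, 163437569 to 163446151, GRCh38), which encodes cyclin G1, fell most evenly. In wild-type clones 1 to 5 it was at 72.9, 63, 67.9, 84 and 58.1 CPM in DMSO and at 41.4, 34.1, 37.7, 37.5 and 31.6 CPM in venetoclax. Every venetoclax value lay below every DMSO value. The change was -0.93 ± 0.15 (adjusted p = 7.7e-07), to 52.6% of DMSO. In A428D clones the lowest, median and highest levels were 54.8, 70.3 and 84.4 CPM in DMSO and 33.3, 39.6 and 54.9 CPM in venetoclax. All 6 clones fell, by 0.76 on the log2 scale (SE 0.13, adjusted p = 3.48e-05), and the groups touched only at 54.8 and 54.9 CPM. Under Z-V, B-V and P-V the A428D medians were 39.9, 39.8 and 41.4 CPM, with changes of -0.80, -0.79 and -0.71. In wild-type B-V, clone 3 stood at 81.6 CPM and the other 4 clones at 31.7 to 43 CPM; the change was -0.69 with that library and -0.98 without it (adjusted p = 0.000333 and 1.27e-07), and the first was lost in a fit of the groups compared alone (adjusted p = 0.157).

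For MDM2, the wild-type levels were 36.3, 38, 36.7, 36.3 and 32.6 CPM in DMSO and 27.2, 26, 30.3, 27 and 27.7 CPM in Z-V, 2 ranges that did not overlap. That change was -0.38 ± 0.13 (adjusted p = 0.0276), and it was lost in 3 of 5 fits without 1 wild-type clone (highest adjusted p = 0.114). In wild-type B-V the clones held 28.7, 26.3, 81.6, 24.9 and 26.1 CPM, where only the shallow library of clone 3 lay above the DMSO range and the other 4 lay below it. The B-V change was -0.04 with that library (adjusted p = 0.893) and -0.45 without it (adjusted p = 3.1e-05). With all libraries MDM2 ranged from -0.38 to 0.24 over the 14 comparisons. MDM4, which binds p53 and inhibits its activity, fell more widely. In wild-type clones it went from 77.2, 62.1, 63.5, 70.5 and 71.9 CPM in DMSO to 54.8, 53.1, 47.2, 58.2 and 48.3 CPM in venetoclax, with no overlap. The change was -0.40 ± 0.094 (adjusted p = 0.000498), and it was -0.48 in P-V (adjusted p = 3.09e-05). In wild-type B-V it was -0.17 with the shallow library, at 90.1 CPM, and -0.33 without it (adjusted p = 0.206 and 0.00396). In A428D clones MDM4 was called in Z-V (-0.35) and P-V (-0.31, lost in 1 of 6 fits without 1 clone, adjusted p = 0.0736), but in V (-0.21, adjusted p = 0.0731) and B-V only with the block (adjusted p = 0.0214 and 0.0168). PPM1D, the phosphatase that acts on p53 and its kinases, was called once, in wild-type Z-V (-0.47, adjusted p = 0.0374), and 3 of 5 fits without 1 clone lost it (highest adjusted p = 0.204).

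Of the arrest genes, CDKN1A (chromosome 6, 36676460 to 36687339), which encodes the cyclin-dependent kinase inhibitor p21, went in opposite directions under pomalidomide and venetoclax. Wild-type clones 1 to 5 held 58.3, 60.3, 51.7, 67.6 and 58.5 CPM in DMSO, 100, 90.5, 92.1, 98.2 and 90.7 CPM in pomalidomide and 34.1, 34.8, 33.4, 30.5 and 30.2 CPM in venetoclax. The 3 groups did not overlap. Pomalidomide raised it 1.59-fold (0.67 ± 0.16 on the log2 scale, adjusted p = 0.00184) and venetoclax lowered it to 55% of DMSO (-0.86 ± 0.17, adjusted p = 2.74e-05). Under both together, the 5 clones held 60.3, 50.8, 42.2, 49.7 and 48.8 CPM, near DMSO (-0.24, adjusted p = 0.257; 0.02 with the block).

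A428D clones showed the same order for CDKN1A. The lowest, median and highest levels were 49.7, 62.3 and 84 CPM in DMSO, 68.5, 86.1 and 147 CPM in pomalidomide, and 34.6, 40.2 and 54.6 CPM in venetoclax. All 6 clones rose under pomalidomide (0.56 ± 0.15, adjusted p = 0.00569) and all 6 fell under venetoclax (-0.56 ± 0.15, adjusted p = 0.00527), while the ranges overlapped. The pomalidomide call was lost in a fit of the groups compared alone (adjusted p = 0.0688). Under zelebrudomide all 6 A428D clones were higher (0.34), a change called only with the block (adjusted p = 0.352 without it, 0.00186 with it). Bexobrutideg with venetoclax left CDKN1A as low as venetoclax alone did, at -0.84 in wild-type and -0.62 in A428D clones (adjusted p = 0.000115 and 0.00233).

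BTG2 (chromosome 1, 203305491 to 203309602), an antiproliferative cofactor, stood at 314, 239, 260, 308 and 285 CPM in wild-type DMSO and at 221, 127, 144, 157 and 142 CPM in venetoclax. No venetoclax library reached the DMSO range, and the change was -0.83 ± 0.16 (adjusted p = 2.47e-05). P-V gave 188, 132, 130, 174 and 149 CPM (-0.86, adjusted p = 9.56e-06). Z-V, at 331, 208, 190, 247 and 237 CPM, and B-V, at 348, 210, 440, 279 and 266 CPM, overlapped DMSO and were not called in wild-type clones. The A428D median was 290 CPM in DMSO, 213 in V, 158 in Z-V and 154 in P-V. BTG2 was lower there in all 4 venetoclax conditions, with -0.79 in both Z-V and P-V, but the calls in V (-0.47, adjusted p = 0.0164) and B-V (-0.45, adjusted p = 0.0226) were lost in 3 and 4 of 6 fits without 1 clone (highest adjusted p = 0.131 and 0.128). Under single partners BTG2 was called only with the block: higher with bexobrutideg (0.39, adjusted p = 0.00162) and lower with pomalidomide (-0.40, adjusted p = 0.000772) in wild-type clones.

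GADD45A (chromosome 1, 67685061 to 67688338), a small stress protein that acts in growth arrest, held 12.1, 12.3, 10.9, 16.7 and 14.3 CPM in wild-type DMSO. It fell to 6.42, 6.38, 6.15, 8.24 and 7.17 CPM in venetoclax (-0.94 ± 0.21, adjusted p = 0.000271) and to 4.33, 5.23, 4.84, 8.62 and 6.84 CPM in P-V (-1.14 ± 0.22, adjusted p = 1.8e-05). Neither group overlapped DMSO. In A428D clones the largest change was in Z-V, from a median of 8.96 to 4.4 CPM (-1.11 ± 0.22, adjusted p = 6.42e-05), and P-V gave -0.92. The A428D change in venetoclax alone, -0.51, was called only with the block (adjusted p = 0.0709 without it, 0.00147 with it), and the B-V call (-0.58, adjusted p = 0.0423) was lost in 5 of 6 fits without 1 clone (highest adjusted p = 0.25).

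PLK3 (chromosome 1, 44800225 to 44805990), a stress-responsive polo-like kinase, was the 1 gene of the set that both BTK degraders, given alone, lowered in wild-type clones. Its levels in clones 1 to 5 were 11.2, 13.8, 14.2, 8.97 and 10.7 CPM in DMSO and 5.02, 6.14, 6.9, 5.5 and 7.74 CPM in bexobrutideg. The groups did not overlap, and the change was -0.91 ± 0.15 (adjusted p = 2.51e-05). Zelebrudomide gave 6.12, 9.42, 8.09, 6.74 and 6.56 CPM (-0.67 ± 0.15, adjusted p = 0.00121), lower in 5 of 5 clones. Z-V lowered it by 0.41 on the log2 scale (adjusted p = 0.0438), a call lost in 4 of 5 fits without 1 clone (highest adjusted p = 0.267). Bexobrutideg with venetoclax gave 7.51, 7.27, 1.49, 6.41 and 5.68 CPM, the lowest of them clone 3, the shallow library. The change was -0.94 with it and -0.82 without it (adjusted p = 7.49e-06 and 3.96e-05). A428D clones had lowest, median and highest levels of 8.41, 11.5 and 16.6 CPM in DMSO, 11.4, 12.9 and 14.1 in zelebrudomide and 8.41, 10.5 and 13.4 in bexobrutideg, and none of the 7 comparisons with DMSO was called. Under venetoclax alone PLK3 was 0.28 higher in both genotypes, called only with the block (adjusted p = 0.0399 and 0.0397).

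**Figure D2:**
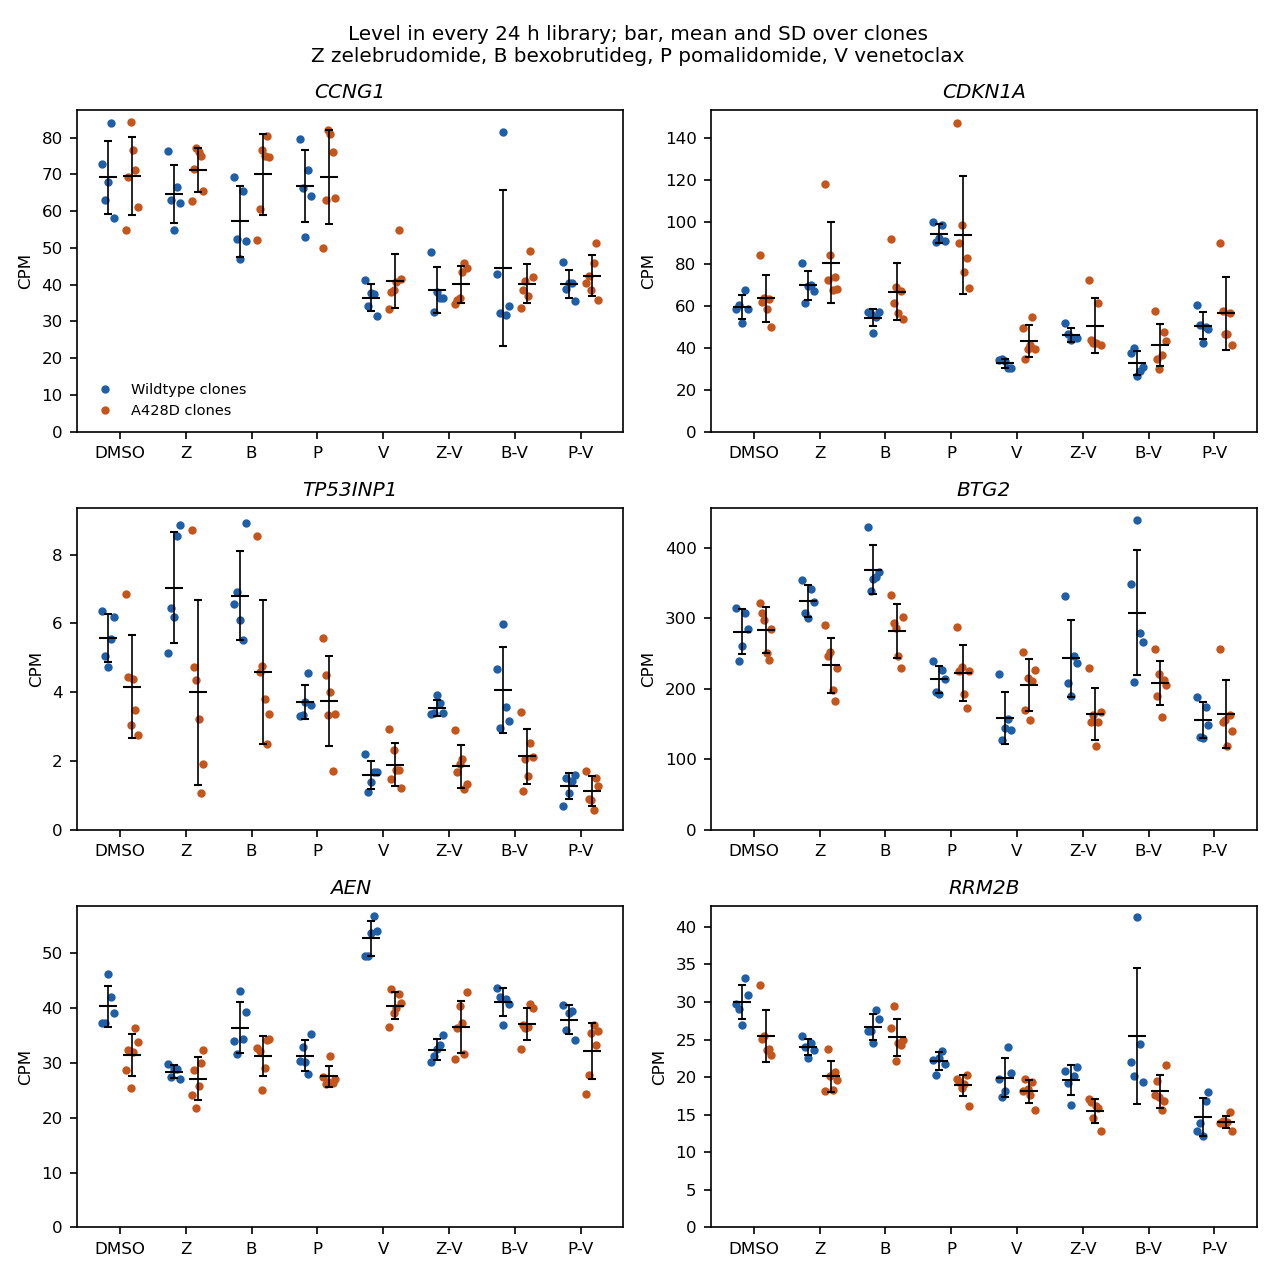
CPM of CCNG1, CDKN1A, TP53INP1, BTG2, AEN and RRM2B in every 24 h library (points; blue wild type, orange A428D), with the mean and SD over 5 or 6 clones, by condition. CDKN1A is at 90.5 CPM or more in all wild-type pomalidomide libraries and at 34.8 or less in all wild-type venetoclax libraries, and the 1 high wild-type point for CCNG1 (81.6) and RRM2B (41.3) under B-V is the shallow library.

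Of the 4 tested genes of death receptor signalling, FAS and TNFRSF10B were called against DMSO. FAS, the CD95 receptor, was at 7.62, 4.81, 5.66, 7.79 and 7.94 CPM in wild-type DMSO and 4.96, 4.48, 3.26, 5.54 and 3.58 CPM in venetoclax, ranges that overlapped. It was called in V (-0.63, adjusted p = 0.0226) and P-V (-0.67, adjusted p = 0.0158), but 4 of 5 and 3 of 5 fits without 1 clone lost these calls (highest adjusted p = 0.176 and 0.128). TNFRSF10B, a receptor for the death ligand TRAIL, was called in wild-type V (-0.49) and Z-V (-0.53) and in A428D Z-V (-0.53); each call was lost in 4 fits without 1 clone (highest adjusted p = 0.163, 0.123 and 0.0983). In wild-type B-V it was -0.41 with the shallow library and -0.64 without it (adjusted p = 0.119 and 0.0116). TNFRSF10A, the other TRAIL receptor of the set, ranged from -0.23 to 0.48 and was not called with all libraries (lowest adjusted p = 0.0579), while without the shallow library it was 0.53 in wild-type B-V (adjusted p = 0.0417). Not called either was PIDD1, a death-domain scaffold (-0.20 to 0.36, lowest adjusted p = 0.0721).

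Of the intracellular death and mitochondrial genes, TP53INP1, a stress-induced nuclear and autophagy protein, had the largest change of any called gene of the set. Wild-type clones held 6.35, 5.05, 4.72, 5.55 and 6.17 CPM in DMSO, 2.19, 1.09, 1.38, 1.67 and 1.66 CPM in venetoclax and 0.693, 1.51, 1.07, 1.41 and 1.59 CPM in P-V. Both venetoclax groups lay wholly below DMSO. The changes were -1.79 ± 0.3 (adjusted p = 3.01e-06; 28.9% of DMSO) and -2.12 ± 0.32 (adjusted p = 1.8e-07; 23.1%). Z-V kept the wild-type clones higher, at 3.36, 3.39, 3.91, 3.67 and 3.4 CPM, a change of -0.65 called only with the block (adjusted p = 0.103 and 0.00858). In A428D clones the lowest, median and highest levels were 2.76, 3.93 and 6.85 CPM in DMSO, 1.21, 1.72 and 2.92 in V and 0.555, 1.08 and 1.7 in P-V. It was called in all 4 venetoclax conditions (-1.13, -1.17, -0.98 and -1.88 in V, Z-V, B-V and P-V), with the B-V call lost in 2 of 6 fits without 1 clone (highest adjusted p = 0.0859). A gene near 1 CPM rests on few reads: over the 24 h and untreated libraries its lowest count was 4.

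AEN (chromosome 15, 88621296 to 88632282), a nuclease that enhances apoptosis, was the exception to the fall. Its wild-type levels were 37.2, 37.3, 46.1, 41.9 and 39.1 CPM in DMSO, 49.4, 49.4, 53.7, 56.8 and 54.1 CPM in venetoclax and 29.8, 27.4, 28.9, 28.9 and 27 CPM in zelebrudomide. The 3 groups did not overlap. Venetoclax raised it 1.31-fold (0.39 ± 0.092, adjusted p = 0.000617) and zelebrudomide lowered it to 70.4% of DMSO (-0.51 ± 0.1, adjusted p = 7.89e-05). Pomalidomide lowered it by 0.36 on the log2 scale (adjusted p = 0.00413), lost in 2 of 5 fits without 1 clone (highest adjusted p = 0.0584). Under Z-V it was at 30.1, 31.3, 32.6, 33.2 and 35 CPM, below DMSO (-0.32, adjusted p = 0.0112), a call lost in 1 of 5 fits without 1 clone (adjusted p = 0.0595). A428D levels (lowest, median, highest) were 25.4, 32.1 and 36.3 CPM in DMSO and 36.5, 40.4 and 43.4 CPM in venetoclax, again without overlap (0.36 ± 0.086, adjusted p = 0.00157). The A428D calls in Z-V (0.22) and B-V (0.24) had adjusted p = 0.0497 and 0.0432, and were lost in 4 and 2 of 6 fits without 1 clone (highest adjusted p = 0.241 and 0.115).

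PHLDA3, a pleckstrin-homology protein that restrains AKT, was called against DMSO in the 3 combinations and not in venetoclax alone. No combination was called against venetoclax alone for this gene, so a difference between them was not shown. In wild-type clones it held 3.3, 7.15, 6.61, 4.7 and 4.12 CPM in DMSO and 2.69, 2.82, 2.28, 1.93 and 2.35 CPM in Z-V, without overlap (-1.10 ± 0.29, adjusted p = 0.00334). P-V gave -1.14 in wild-type and -0.80 in A428D clones (adjusted p = 0.000437 and 0.00827). The B-V calls, -0.94 and -0.80, were lost in 2 fits without 1 clone in each genotype (highest adjusted p = 0.0903 and 0.0906). ZMAT3, an RNA-binding protein, was called once, in wild-type venetoclax (-0.36, adjusted p = 0.0141), and 3 of 5 fits without 1 clone lost it (highest adjusted p = 0.0983). FDXR, which transfers electrons in the mitochondrion, ranged from -0.28 to 0.31 without a call. TP53I3, an oxidoreductase, ranged from -0.18 to 0.19 and TRIAP1, a small inhibitor of apoptosis, from -0.10 to 0.17. SPATA18, a mitochondrial quality-control protein, spanned -0.66 to 0.70 without a call.

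Among the repair genes RRM2B, the p53-induced subunit of ribonucleotide reductase, was called in 12 of the 14 comparisons, always lower. Wild-type clones held 29.7, 29.1, 26.9, 33.2 and 30.9 CPM in DMSO, 19.7, 17.4, 18.1, 24 and 20.6 CPM in venetoclax and 12.8, 13.9, 12.1, 16.8 and 18 CPM in P-V. The groups under venetoclax and under P-V lay wholly below DMSO. P-V lowered it to 49.1% of DMSO (-1.03 ± 0.11, adjusted p = 2.54e-12) and pomalidomide alone by 0.44 on the log2 scale (adjusted p = 0.00146). A428D medians were 24.5 CPM in DMSO, 18.2 in V and 14 in P-V, where the change was -0.87 (adjusted p = 7.59e-11). The zelebrudomide calls were the weakest, at -0.32 in wild-type and -0.34 in A428D clones, and were lost in 4 of 5 and 5 of 6 fits without 1 clone (highest adjusted p = 0.214 and 0.426). In wild-type B-V the change was -0.29 with the shallow library, which held 41.3 CPM, and -0.49 without it (adjusted p = 0.0411 and 0.00011); 4 of 5 fits without 1 clone lost the call (highest adjusted p = 0.282).

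The nucleotide excision and bypass genes were flatter. DDB2, a damage-recognition subunit, was lower in wild-type clones under Z (-0.43), Z-V (-0.34) and B-V (-0.51, adjusted p = 0.00136); the first pair of calls was lost in 3 and 4 of 5 fits without 1 clone (highest adjusted p = 0.0999 and 0.115), and the B-V call in a fit of the groups compared alone (adjusted p = 0.0934). POLH, the bypass polymerase eta, was called in wild-type B-V (-0.41) and P-V (-0.34), and 4 and 5 of 5 such fits lost these (highest adjusted p = 0.172 and 0.276); without the shallow library alone the B-V change was -0.33 (adjusted p = 0.105). XPC, which senses DNA lesions, ranged from -0.30 to 0.28, and ASCC3, a helicase, from -0.40 to 0.23, with no call.

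SESN1, a stress protein that restrains mTORC1, stood at 6.1, 5.42, 6.02, 3.95 and 4.26 CPM in wild-type DMSO and 3.94, 2.31, 3.14, 2.45 and 3.84 CPM in venetoclax. The groups did not overlap, by a narrow gap between 3.94 and 3.95 CPM, and the change of -0.72 ± 0.23 (adjusted p = 0.0101) was lost without wild-type clone 2 (adjusted p = 0.0933). P-V gave -0.97 (adjusted p = 0.000653), and Z-V -0.69, a call lost in 3 of 5 fits without 1 clone (highest adjusted p = 0.139). In A428D clones SESN1 fell in V (-0.78), Z-V (-0.84), B-V (-0.69) and P-V (-0.83); the V call was lost in 1 of 6 and the B-V call in 2 of 6 fits without 1 clone (highest adjusted p = 0.0665 and 0.0947). GDF15 lay between 0 and 3.4 CPM in all 24 h libraries. Its 1 call, in A428D B-V (-1.88 ± 0.64, adjusted p = 0.032), was lost without A428D clone 4 (adjusted p = 0.134). TIGAR, a fructose bisphosphatase (-0.23 to 0.21), and FBXO22, a ubiquitin ligase subunit (-0.19 to 0.15), were not called.

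The calls of the 2 genotypes overlapped in part. Of the genes called in venetoclax, 7 were called in both, 58.3% of the wild-type and 100% of the A428D calls. In P-V 8 were shared (80% and 100%), in Z-V 7 (63.6% and 70%, with AEN in opposite directions) and in B-V 4 (57.1% and 40%). The overlap over all tested genes was not counted, so whether these shares are particular to the set was not tested. Whether the response itself differed was tested as an interaction, A428D minus wild type. For venetoclax edgeR called no gene of the set and none had an unadjusted p under 0.05; DESeq2 also called 0, and 0% of all genes were called. The difference was 0.30 for CDKN1A (95% interval -0.13 to 0.74) and 0.17 for CCNG1 (-0.22 to 0.56). The same held for pomalidomide (0%) and for P-V (0.00668% of all genes), with 0 genes of the set at an unadjusted p under 0.05 and 0 by DESeq2.

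For Z, B, Z-V and B-V the difference between genotypes was called for 1, 0, 1 and 1 of the 29 genes (3.45% where 1 was called), where 1.04, 0.615, 3.32 and 1.96% of all genes were called. PLK3 responded 0.77 ± 0.2 higher in A428D than in wild-type clones to zelebrudomide (adjusted p = 0.027). That call was lost in 4 of 11 fits without 1 clone (highest adjusted p = 0.0831). For B-V the PLK3 difference was 1.12 ± 0.21 (adjusted p = 0.000478) and 1.01 without the shallow library (adjusted p = 0.000582), but a fit of the groups compared alone gave adjusted p = 0.0619. For bexobrutideg alone it was 0.75, called only with the block (adjusted p = 0.0526 and 0.00485); edgeR called 0 genes of the set there, 1 had an unadjusted p under 0.05, and DESeq2 called 1. AEN differed for Z-V by 0.54 ± 0.13 (adjusted p = 0.00802), where wild-type clones went below DMSO and A428D clones above it. BTG2 differed with the block alone, by -0.49, -0.40, -0.58 and -0.58 for Z, B, Z-V and B-V (adjusted p = 0.005, 0.041, 0.000588 and 0.00124).

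**Figure D3:**
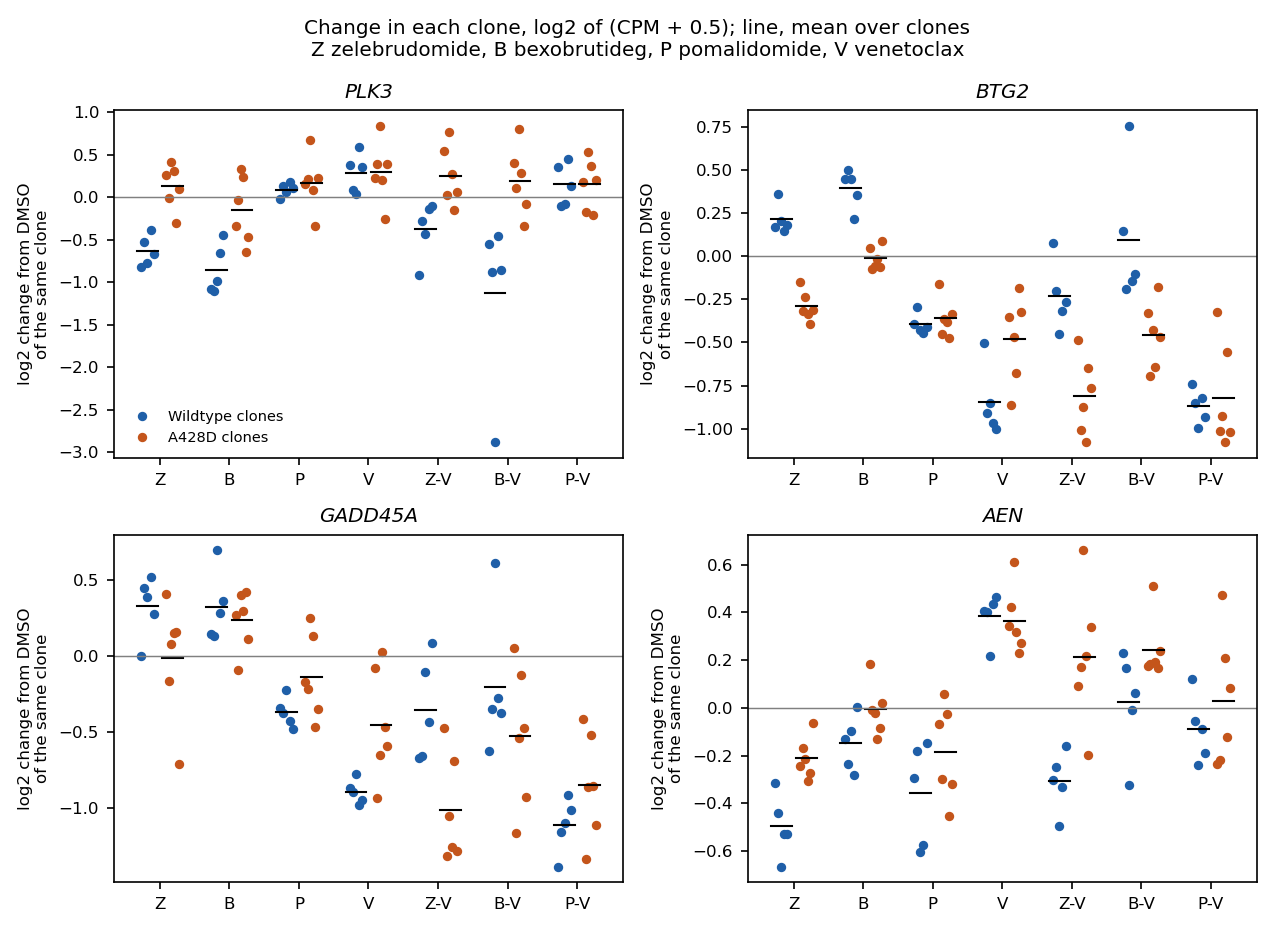
Change of PLK3, BTG2, GADD45A and AEN in each clone, as log2(CPM + 0.5) minus the DMSO library of the same clone (y axis), by condition (x axis), with a line at the mean. Under Z and B all wild-type points for PLK3 lie below 0 while the A428D points lie on both sides, and the lowest PLK3 point under B-V is the shallow library.

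Each combination was also set against venetoclax alone. In wild-type clones Z-V raised 3 and lowered 3 of 29, 20.7% beside 21.2% of all genes called in either direction. B-V raised 4 and lowered 4 (27.6% beside 15.5%; 2 and 5 without the shallow library), and P-V raised 1 and lowered 3 (13.8% beside 8.41%). Without the shallow library MDM2 was also lower in B-V than in V, by 0.39 on the log2 scale (adjusted p = 0.000452). BTG2 was 0.62 ± 0.16 higher in Z-V (adjusted p = 0.00268) and 0.96 ± 0.16 higher in B-V (adjusted p = 6.23e-06; 0.78 without the shallow library, adjusted p = 0.000269), in 5 of 5 clones each. TP53INP1 was 1.14 and 1.28 higher (adjusted p = 0.0126 and 0.00514), the first lost in 3 of 5 fits without 1 clone (highest adjusted p = 0.0726). PLK3 was lower by 0.69 and 1.22 (adjusted p = 0.000541 and 2.15e-08), and AEN by 0.70, 0.35 and 0.48 in Z-V, B-V and P-V (adjusted p = 4.03e-08, 0.00535 and 9.87e-05).

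CDKN1A was higher with zelebrudomide (0.51, adjusted p = 0.0246) and with pomalidomide (0.63, adjusted p = 0.00762) on top of venetoclax, in 5 of 5 clones each; 4 and 3 of 5 fits without 1 clone lost these calls (highest adjusted p = 0.118 and 0.0708). FDXR was lower by 0.55, 0.57 and 0.52 in the 3 combinations, calls lost in 1, 1 and 4 of 5 such fits (highest adjusted p = 0.072, 0.113 and 0.083). GADD45A (0.72) and SESN1 (0.68) were higher in B-V, but without the shallow library their adjusted p were 0.0832 and 0.149. DDB2 was lower in B-V by 0.44, a call lost in 1 of 5 fits without 1 clone (adjusted p = 0.0867), and RRM2B was lower in P-V by 0.44 (adjusted p = 0.0042).

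In A428D clones edgeR called no gene of the set for Z-V against V (1.07% of all genes) or B-V against V (0%). There 3 and 1 had an unadjusted p under 0.05, and DESeq2 called 0 in both. With clone as a block 2 were called for Z-V, both lower, beside 765 of all 14962 genes. For B-V the block called 0 of the set and 0 of all genes. P-V against V lowered AEN by 0.32 (adjusted p = 0.00736) and RRM2B by 0.38 (adjusted p = 0.00894), where 7.91% of all genes were called; 1 of 6 fits without 1 clone lost AEN (adjusted p = 0.123), and a fit of the groups compared alone lost RRM2B (adjusted p = 0.0907). The difference between genotypes in what zelebrudomide added was called for BTG2 (-0.94 ± 0.21, adjusted p = 0.00261), AEN (0.56 ± 0.13, adjusted p = 0.00314), GADD45A (-1.20 ± 0.32, adjusted p = 0.0133) and PLK3 (0.65 ± 0.2, adjusted p = 0.033), with 6.22% of all genes called. GADD45A was lost without A428D clone 4 or wild-type clone 5 and PLK3 without wild-type clone 1 or 4 (highest adjusted p = 0.0989 and 0.127). For bexobrutideg it was called for PLK3 (1.12 ± 0.2, adjusted p = 0.000164) and BTG2 (-0.94 ± 0.21, adjusted p = 0.00379; 3.36% of all genes). BTG2 was -0.76 without the shallow library (adjusted p = 0.024) and was lost without wild-type clone 3 (adjusted p = 0.0551). For pomalidomide edgeR and DESeq2 called 0 of the set, none had an unadjusted p under 0.05, and 0% of all genes were called. These 3 interaction contrasts were added after the 24 h results were seen.

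**Figure D4:**
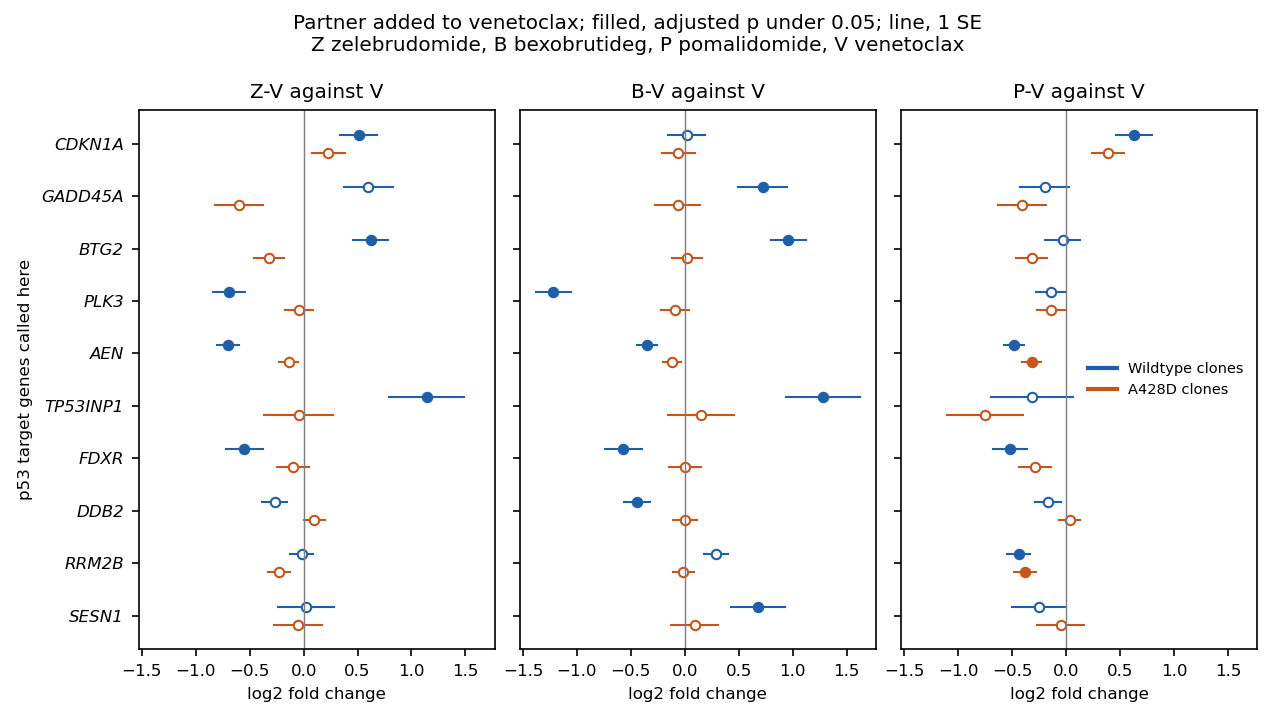
Log2 fold change (x axis) of each combination against venetoclax alone for the 10 targets called in any of these comparisons (y axis), in wild-type (blue) and A428D (orange) clones, with 1 SE and filled points where the adjusted p was under 0.05. BTG2 and TP53INP1 lie right of 0 and PLK3 left of 0 in wild-type Z-V and B-V, and no A428D point is filled in these 2 panels.

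Each combination was likewise set against the partner alone, and most of the called genes were lower. In wild-type clones 6 of 29 were lower on zelebrudomide (5.31% of all genes lower, 12.5% called in either direction), 5 on bexobrutideg (7.88%; 18.8%) and 9 on pomalidomide (10.4%; 20.1%). PIDD1 (0.45) and AEN (0.27) were called higher on pomalidomide, and both calls were lost in 3 of 5 fits without 1 clone (highest adjusted p = 0.304 and 0.138). In A428D clones 12 were lower and 1 higher on zelebrudomide (10.8% of all genes lower, 9.92% higher, 20.7% in either direction), 8 lower and 2 higher on bexobrutideg (10.5%, 9.21% and 19.7%), and 9 lower on pomalidomide (8.71% lower, 17.1% in either direction). With clone as a block, the wild-type counts on zelebrudomide and bexobrutideg went from 6 to 11 and from 5 to 9. Those over all genes went from 1866 to 3471 and from 2813 to 4423. Without the shallow library and without the block, the count on bexobrutideg was 10.

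The 3 partners were also compared with each other, in 6 pairs, with doses not given. In wild-type clones zelebrudomide and pomalidomide differed in 6 of 29 genes (7.44% of all genes) and bexobrutideg and pomalidomide in 8 (16.1%). GADD45A was 0.76 and 0.73 higher with the degraders than with pomalidomide (adjusted p = 0.00906 and 0.00665), BTG2 0.61 and 0.79 higher (adjusted p = 0.00624 and 8.17e-05) and PLK3 0.76 and 1.0 lower (adjusted p = 0.000154 and 2.25e-07), each in 5 of 5 clones. The first GADD45A call was lost in 2 of 5 fits without 1 clone (highest adjusted p = 0.0653). CDKN1A was lower with bexobrutideg than with pomalidomide by 0.80 (adjusted p = 0.000117).

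Zelebrudomide and bexobrutideg differed in AEN alone (-0.36, adjusted p = 0.033; 1.23% of all genes), a call lost in each of the 5 fits without 1 clone (highest adjusted p = 0.318). Between these degraders PLK3 differed by 0.24 (95% interval -0.079 to 0.56) and BTG2 by -0.18 (-0.49 to 0.12) in wild-type clones. In A428D clones edgeR called no gene of the set between zelebrudomide and bexobrutideg (1.24% of all genes) or between zelebrudomide and pomalidomide (0.842%). Of the set, 3 and 2 had an unadjusted p under 0.05, and DESeq2 called 1 and 0. With clone as a block 3 and 0 were called, beside 720 and 586 of all genes. CDKN1A there differed between zelebrudomide and pomalidomide by -0.22 (-0.50 to 0.068). Bexobrutideg against pomalidomide gave RRM2B 0.42 higher (adjusted p = 0.00132) and CDKN1A 0.49 lower (adjusted p = 0.0214; 7.83% of all genes), the latter lost in 1 of 6 fits without 1 clone (adjusted p = 0.0511).

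The untreated libraries form a separate set, in which the A428D clones held more of some arrest genes. There BTG2 was at 211, 195, 162, 169 and 180 CPM in wild-type clones and at 247, 268 and 317 CPM (lowest, median, highest) in A428D clones. The groups did not overlap, and the difference was 0.57 ± 0.075 (adjusted p = 0.000508). CDKN1A was at 39.3, 30.5, 37.6, 31.6 and 35 CPM in wild-type and at 40.6, 50.9 and 58.7 CPM in A428D clones, also without overlap (0.52 ± 0.11, adjusted p = 0.0166), and ZMAT3 at 93.2 to 109 and 114 to 132 CPM (0.23 ± 0.05, adjusted p = 0.0141). Without wild-type clone 4 the last pair had adjusted p = 0.0528 and 0.0571. TP53I3 was 0.49 higher (adjusted p = 0.0366), a call lost in 7 of 11 fits without 1 clone (highest adjusted p = 0.0949). These were 4 of the 28 genes tested (5.9% of all genes). In the same comparison 15 of 17 tested immediate early genes were higher in A428D clones and 0 lower, with a median of 0.93, where 3.5% of all genes were higher and 2.4% lower. Their part in the untreated differences of BTG2 and CDKN1A was not tested. The parental library held 129 CPM of BTG2, 32.7 of CDKN1A and 64.1 of MDM2.

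In DMSO at 24 h neither gene was called between genotypes, and of 16 immediate early genes 0 were higher and 1 lower (median 0.20). BTG2 spanned 239 to 314 CPM in wild-type and 240 to 322 CPM in A428D clones, and only AEN of 27 genes was called, lower in A428D clones (-0.38 ± 0.094, adjusted p = 0.0261; 7.22% of all genes) and lost in 3 of 11 fits without 1 clone (highest adjusted p = 0.081). Untreated and DMSO libraries differed throughout, with 22 of 28 genes of the set called in each genotype against 72% and 71% of all genes. PLK3 was 1.11 and 1.33 higher untreated, TP53INP1 was 2.72 and 1.97 lower, CDKN1A 1.00 and 0.59 lower and MDM2 0.44 and 0.33 higher, in wild-type and A428D clones. The untreated set was sequenced more deeply, and set and exposure cannot be told apart.

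**Figure D5:**
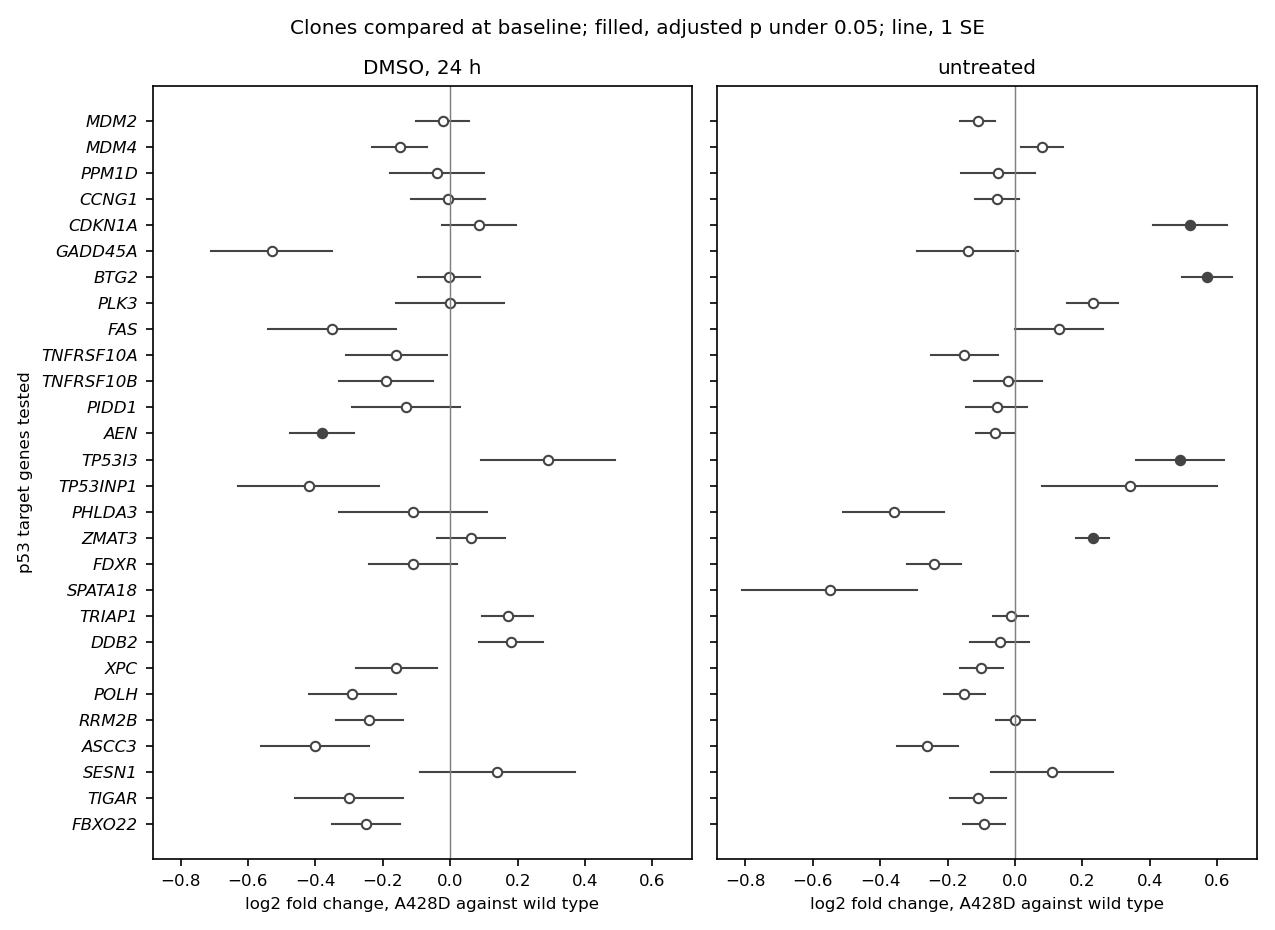
Log2 fold change of A428D against wild-type clones (x axis) for each tested target (y axis), in DMSO at 24 h (left) and untreated (right), with 1 SE and filled points where the adjusted p was under 0.05. CDKN1A (0.52), BTG2 (0.57), TP53I3 and ZMAT3 are filled on the right and AEN (-0.38) on the left.

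Other p53-linked genes were read from fixed lists for comparison, beside the shares of all genes called under venetoclax: 17.4% lower and 15.4% higher in wild-type clones, and 8.81% lower and 8.06% higher in A428D clones. Of 42 further p53 targets tested, venetoclax lowered 13 and raised 3 in wild-type clones (median -0.21) and lowered 10 and raised 2 in A428D clones (median -0.15). P-V lowered 17 and raised 3 in wild-type clones (19% and 17.7% of all genes) and lowered 14 and raised 4 in A428D clones (15.9% and 14.5%). BBC3, which encodes the BH3-only death protein PUMA, went from 151, 160, 162, 194 and 170 CPM in wild-type DMSO to 65.2, 72, 63.1, 79 and 83.3 CPM in venetoclax (-1.21, adjusted p = 5.02e-15) and by -0.98 in A428D clones (adjusted p = 1.64e-12). It rose with zelebrudomide (0.45, adjusted p = 0.00103) and bexobrutideg (0.40, adjusted p = 0.0112) in wild-type clones. CYFIP2, an actin regulator, fell by 1.66 and 1.41 on the log2 scale in P-V, and KCNN4, a potassium channel, rose by 1.01 and 0.98 in pomalidomide, in wild-type and A428D clones. Of 25 cell cycle genes listed as lowered by p53 through p21, venetoclax raised 7 in wild-type and 4 in A428D clones and lowered none. From this list PCNA, the replication clamp, rose by 1.44 and 0.88 (adjusted p = 3.59e-06 and 0.00314). The part of p53 in these changes was not tested.

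Lists for other pathways were read in the same way. Of 23 regulators of p53 tested, venetoclax lowered 4 and raised 1 in wild-type clones (17.4% and 15.4% of all genes), with a median of -0.11; the lower share of the list, 4 of 23, lay near that of all genes. Among the 4 was ATM, the damage-sensing kinase (-0.67, adjusted p = 2.32e-05). Of 16 immediate early genes it raised 5 and lowered 4 there, and raised 2 and lowered 3 in A428D clones (medians 0.13 and -0.24). Among all genes zelebrudomide lowered 3.52% and raised 3.05% in wild-type clones, bexobrutideg lowered 1.71% and raised 0.735%, and pomalidomide lowered 4.63% and raised 5.35%; in A428D clones 0.715, 0 and 3.76% were lower and 1.34, 0 and 4.92% higher. Of 14 ATF4 and CHOP stress genes, wild-type clones had 9 lower in zelebrudomide, 9 in bexobrutideg and 0 in pomalidomide (medians -0.88 and -0.86 in the first pair), and A428D clones had 1 higher in pomalidomide and no other call in these 3. Venetoclax lowered 6 of the 14 in each genotype (medians -0.4 and -0.45), where 2606 and 1318 of all 14962 genes were lower. Z-V, B-V and P-V lowered 12, 11 and 12 in wild-type clones (1723, 1565 and 2844 of all genes). In A428D clones they lowered 6, 6 and 7 (2091, 1295 and 2386 of all genes). Of 16 NF-kB targets, zelebrudomide lowered 10 and raised 2 and bexobrutideg lowered 9 in wild-type clones, and A428D clones had 1 higher in zelebrudomide and 0 called in bexobrutideg. Of these 16, pomalidomide raised 8, and venetoclax raised 6 and lowered 1, in wild-type clones. In A428D clones pomalidomide raised 4 and lowered 2, and venetoclax raised 2 and lowered 1 (1206 of all genes higher). Z-V and B-V each lowered 7 in wild-type clones, and P-V raised 6 there (2652 of all genes higher). In A428D clones Z-V, B-V and P-V raised 3, 1 and 4 (1822, 1051 and 2169 of all genes) and lowered 1, 1 and 2. The part of these lists in the changes of PLK3, BTG2 and GADD45A was not tested.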

How the data were processed

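Libraries (100 in all, TMD8) were read at the 3′ ends of polyadenylated transcripts, per the labels' protocols. STAR 2.7.11, featureCounts of Subread 2.1.1, fastp 0.24.0 and edgeR are listed in the submitters' processing notes, with GRCh38/hg38; their order, the strand setting and the annotation release are not given in the sources used here, so reads of overlapping or antisense genes cannot be told apart. Values in the deposited table are estimated counts; 8.75% were not whole, and all were rounded. The 92 spike-in rows were left out. Gene coordinates are those of the GRCh38 annotation used here.

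Genes with too few counts were removed with filterByExpr (minimum count 10, minimum total 15). Counts were scaled by TMM and fitted with edgeR 4.0.16 (quasi-likelihood, robust; R 4.3.3) over the 16 groups of the 24 h set, without a clone term. Genotypes were compared in separate fits of DMSO and of untreated libraries. CPM used TMM library sizes, scaled separately in the 2 sets. Paired changes used a pseudocount of 0.5 CPM. Alternatives were DESeq2 1.42.0, scaling by library totals, no filter, only the groups compared, clone as a block, and leaving out each clone. A fit without the 24 h libraries under 4000000 counts, and the 3 interaction contrasts for partners on venetoclax, were added after results were seen. The scripts were tested on simulated data.

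Clone numbers pair the libraries, since same-numbered libraries came from the same clone: over 500 genes the median correlation of deviations from group means was 0.685 within a clone and -0.169 between clones, and 87 of 88 libraries lay nearest their own clone. P-values of the main fits measure the spread between libraries within groups, whose clones come from 1 line. These fits hold no clone term. For comparisons within a genotype they do not use the pairing of a clone's libraries, which the fit with clone as a block does. Floors of 3 counts cover counting error only; intervals of a change come from the edgeR fit and reflect the spread between clones. The target genes and gene lists were chosen with earlier results of these data known. Target genes chosen for closer description were up to 12 called in the most comparisons with DMSO and those called between genotypes. MDM2, MDM4, PPM1D, CDKN1A, FAS, TNFRSF10B, GDF15 and TP53INP1 were added for their place in the pathway. Some of the chosen genes have levels clone by clone in wild-type clones, and otherwise levels as ranges or medians, or changes alone. The other target genes have ranges and counts. From other lists, up to 4 genes with the lowest adjusted p were named.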

Additional observations from a re-analysis of the deposited data

Results flagged for a closer look

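Over 18 of the target genes, 324 groups of clones were searched for a sample far from the others, and 26 had one; chance gives about 1 in 20 groups. Wild-type clone 3 in B-V, the shallow library, was the far sample for MDM2 (81.6 CPM), MDM4 (90.1), CCNG1 (81.6), TNFRSF10B (13.4) and RRM2B (41.3). A428D clone 1 stood high for CDKN1A in Z (118) and P-V (89.7), for BTG2 (257), TNFRSF10B (9.12) and ZMAT3 (119) in P-V, for ZMAT3 (136) and RRM2B (32.3) in DMSO, for PHLDA3 in V (5.43) and for SESN1 in Z (7.7) and P (7.73), and low for MDM4 untreated (48.4). Wild-type clone 4 stood high for GADD45A (12.3) and TNFRSF10B (11.5) in P, and stood apart for SESN1 in B (4.19). The other far samples were CDKN1A in wild-type B clone 3 (47.2), BTG2 in wild-type B clone 1 (429), TP53I3 in wild-type DMSO clone 5 (6.17), GADD45A in A428D Z clone 3 (13.2), AEN in A428D P clone 4 (31.3), and GDF15 in wild-type Z clone 3 (0.159) and A428D Z-V clone 6 (1.33).

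The response differed between A428D and wild-type clones, by the interaction test, for PLK3 in Z (0.77) and B-V (1.12) and for AEN in Z-V (0.54), all against DMSO. Against venetoclax alone it differed in Z-V for GADD45A (-1.20), BTG2 (-0.94), PLK3 (0.65) and AEN (0.56), and in B-V for BTG2 (-0.94) and PLK3 (1.12). The contrasts against venetoclax alone were added after the 24 h results were seen. Calls that held in every alternative fit were AEN in Z-V against DMSO, AEN and BTG2 in Z-V against V, and PLK3 in B-V against V. The other calls were each lost in at least 1 alternative fit.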

How the results depend on the processing

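Counts of called target genes are given, as fitted and under each alternative; the cause of each shift was not tested. With clone as a block they went, for genotype differences in response, from 0 to 2 (B), 1 to 2 (Z and B-V), 1 to 4 (Z-V) and 2 to 6 (B-V against V). In A428D clones they went from 1 to 3 (Z), 7 to 14 (V), 0 to 3 (Z against B), 2 to 5 (B against P), 0 to 2 (Z-V against V), 2 to 5 (P-V against V) and 9 to 14 (P-V against P). In wild-type clones they went from 1 to 3 (B; Z against B), 4 to 7 (P), 10 to 17 (P-V), 6 to 10 (Z-V against V), 6 to 11 (Z-V against Z) and 5 to 9 (B-V against B). In each of these comparisons the block also raised the count over all 14962 genes, as from 366 to 1583 in wild-type B. In A428D V that count went from 2524 to 4594. The block lost none of the 231 calls on named genes. No paired analysis was possible because the A428D and wild-type clones are different clones, for the 2 baseline comparisons.

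With only the groups compared, wild-type B-V went from 7 to 2, B-V against V from 8 to 3, B-V against B from 5 to 1, P from 4 to 8, B from 1 to 2, Z against B from 1 to 2 and Z-V against Z from 6 to 10; A428D Z went from 1 to 0, and P, P-V against V and B against P from 2 to 1; the genotype differences for Z and B-V went from 1 to 0 and for B-V against V from 2 to 1. Scaling by library totals gave 4 in place of 1 for genotype in DMSO, 1 in place of 0 (B) and 2 in place of 1 (Z-V) for differences in response, 0 in place of 1 for A428D Z and 10 in place of 6 for wild-type Z-V against V. It moved RRM2B in untreated against DMSO A428D clones from -0.23 to 0.067, and the share of all calls that were higher from 50.8 to 31.1% (wild-type Z-V), 54.8 to 24.6% (Z-V against V) and 47.8 to 70.9% (A428D V). That share went from 48.4 to 13.1% for genotype in DMSO, 45.2 to 85.7% for the Z-V difference and 52.2 to 70.3% for untreated A428D clones. In the last comparison BTG2, MDM4, PHLDA3 and XPC were each lost in 1 of 4 alternative fits with all clones (highest adjusted p = 0.97, 0.419, 0.348 and 0.585). FAS and TP53I3 were lost in 2 of 4 there. Without the filter the counts of called target genes were 2 for genotype in DMSO, 1 for the B difference, 1 for A428D P-V against V, 0 for A428D Z and wild-type Z against B, and 2 for wild-type Z. DESeq2 gave 1 for the B difference and A428D Z against B, and 2 for the Z-V difference. Without libraries under 4000000 counts the Z-V difference was 3, the B-V difference 2, wild-type Z-V 7, Z-V against Z 3 and B-V against B 8; without the shallowest alone, the B-V difference was 2 and B-V against B 10.

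Leaving out 1 clone gave 0 to 5 for genotype in DMSO and 1 to 5 untreated. For differences in response it gave 0 to 1 (B, Z) and 1 to 2 (Z-V; B-V against V). For A428D clones it gave 0 to 1 (Z), 5 to 10 (B-V; P-V against P), 1 to 3 (P-V against V) and 1 to 2 (B against P). For wild-type clones it gave 2 to 4 (Z, P, P-V against V), 6 to 9 (Z-V), 4 to 7 (B-V), 5 to 7 (B-V against V), 2 to 7 (Z-V against Z), 1 to 7 (B-V against B), 7 to 10 (P-V against P), 0 to 0 (Z against B), 2 to 5 (Z against P) and 5 to 8 (B against P). Genes below about 5 CPM, such as GDF15, TP53INP1 and SESN1, rest on few counts per library.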
